A study of Mus musculus with 11 samples.

Results

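Cytosolic ribosomal protein genes encode the proteins that join ribosomal RNA to form the small and the large subunit of the ribosome that translates nuclear mRNAs. Members were rows named Rpl or Rps and a number, with a paralog suffix where there is one, together with Rplp0, Rplp1, Rplp2 and Rpsa, that reached 1 TPM in at least 2 of 11 libraries. TPM is a level per transcript length, scaled so that every library has one fixed total. The rule took 82 of the 24411 rows of the table, 49 of the large subunit and 33 of the small one. Another 2 of the 84 rows with such names stayed under that level: Rpl10l was listed at 0 in every library, and Rpl39l reached at most 0.27 TPM.

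The tumours came from mice homozygous for a Th-MYCN transgene, in which the promoter of tyrosine hydroxylase drives MYCN in the sympathoadrenal lineage and neuroblastoma arises spontaneously. All 4 groups carried this transgene, and none was free of it. At about 5 mm by palpation a mouse received 1 dose of vehicle (intraperitoneal, n = 3), of CBL0137 at 40 mg/kg (intravenous, n = 3), of panobinostat at 5 mg/kg (intraperitoneal, n = 2) or of both drugs (n = 3), and the tumour was frozen 16 h later. CBL0137 is a curaxin, a DNA-binding compound that traps the histone chaperone FACT, and panobinostat inhibits histone deacetylases. Panobinostat replicate 2 is not analysed here.

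Ribosomal protein mRNAs are among the most abundant in a growing cell, and the proteins are needed in equal number, because one copy of nearly every protein goes into each ribosome. MYC proteins are known activators of ribosome production. Many of these mRNAs begin with a terminal oligopyrimidine tract (TOP), a C followed by a run of C and T, through which mTOR signalling regulates their translation. When ribosome assembly fails, free Rpl5 and Rpl11, which assemble with 5S RNA, can bind Mdm2 and stabilise p53.

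The start sites of members that the results turn on are shown first. A reader can then see the TOP motif in genes called lower after the combination and in genes not called. Each line gives 30 bases before and 20 bases from the start that RefSeq annotates, 5′ to 3′ on the gene's strand, in build GRCm38.p6. Capitals mark a C lying within 5 bases of the start and followed by at least 4 pyrimidines. Rps6, a small-subunit protein phosphorylated by S6 kinase, carries the longest such run of the first 4. Rpl14 and Rps26 are among the genes that later prove to have fallen furthest, and Rpl22 has no run in this window.
Rps6, chr4:86857348-86857397, minus strand: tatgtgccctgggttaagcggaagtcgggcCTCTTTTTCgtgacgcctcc
Rpl14, chr9:120571487-120571536, plus strand: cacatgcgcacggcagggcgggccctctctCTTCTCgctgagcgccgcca
Rps26, chr10:128626487-128626536, minus strand: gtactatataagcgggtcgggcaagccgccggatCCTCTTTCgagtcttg
Rpl22, chr4:152325696-152325745, plus strand: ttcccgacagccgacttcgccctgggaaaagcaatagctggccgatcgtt
The next 4 belong to genes that did not pass the test after the combination. Rplp2 encodes an acidic protein of the ribosomal stalk, Rps21 a small-subunit and Rpl28 a large-subunit protein, and Rpl3l is the muscle paralog of Rpl3. The first 3 carry a run within 5 bases of the start, and Rpl3l does not. Of the 11 such members with a window, 5 carry a run there.
Rplp2, chr7:141447621-141447670, plus strand: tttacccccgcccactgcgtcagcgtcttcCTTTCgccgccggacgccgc
Rps21, chr2:180257349-180257398, plus strand: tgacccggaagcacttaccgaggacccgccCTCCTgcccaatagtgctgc
Rpl28, chr7:4792935-4792984, plus strand: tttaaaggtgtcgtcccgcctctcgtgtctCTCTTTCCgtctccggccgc
Rpl3l, chr17:24727796-24727845, plus strand: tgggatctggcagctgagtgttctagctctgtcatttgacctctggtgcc

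Of the 82 members, 61 matched a RefSeq window of 300 bases (250 before the start and 50 after it). The start motif described above, on the sense strand alone, was present in 28 of the 61 (45.9%), against 18.5% of all 27025 windows in the table. The element CCGGAAG, which ETS factors bind, searched on both strands, was present in 24 of the 61 (39.3%), against 9.12% of all windows. The YY1 element AAGATGGC was present in 5 (8.20%), against 2.88%, and the E-box CACGTG, the sequence that MYC and MAX bind, in 5 (8.20%), against 7.24%. CCGGAAG ends in the letters with which AAGATGGC begins, so that 1 stretch can hold both. A match describes the letters only.

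Expressed as levels per length, ribosomal protein mRNAs were near the top of every library. Over the 11 libraries, 77 of 82 members had a mean of at least 100 TPM, 58 of at least 1000 TPM and 19 of at least 2000 TPM, and the median member mean was 1391 TPM. The highest means belonged to Rps12, Rpl41, Rpl23a and Rps18, which ranked 10, 14, 18 and 23 among all genes. Rps18, a small-subunit protein at the interface with the large subunit, was at 3103, 3183 and 3098 TPM in vehicle and at 2286, 1905 and 2150 TPM after the combination. Rpl23a, which lies at the exit of the nascent chain tunnel, was at 3370, 3235 and 3295 TPM in vehicle and at 2309, 2125 and 2321 TPM after the combination. Both genes were lower in all 3 combination tumours than in any vehicle tumour, with log2 changes of -0.57 ± 0.11 and -0.55 ± 0.11 (SE, limma, adjusted p = 0.00143 and 0.00122). The lowest means belonged to Rpl7l1, Rps4l, Rps27 and Rpl3l. In vehicle the replicates lay close together, with a median coefficient of variation of 4.17% over members and only 1 member above 20%. That member was Rps4l, named after its values were seen, at 17.6, 7.14 and 80.7 TPM in the 3 vehicle tumours. After the combination the median coefficient of variation was 9.10%.

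Neuroblastoma markers were present in all libraries, and markers of other cell types differed between the groups. The summed level of 11 such markers was 942 to 1134 TPM in vehicle, 1416 to 1591 after CBL0137, 809 to 1039 after panobinostat and 574 to 1103 after the combination. After the combination 6 of the 11 were called lower and 2 higher, with a median log2 change of -0.96. Over all tested genes 30.1% were called lower and 35.9% higher. Hand2, a transcription factor of sympathetic neurons, was at 140 to 178 TPM in vehicle, 129 to 147 after CBL0137, 112 and 177 after panobinostat and 43.9 to 88.5 after the combination. Th, the tyrosine hydroxylase of catecholamine synthesis, was at 99.6 to 179 TPM in vehicle and 150 to 416 after the combination. The summed level of 14 macrophage markers was 916 to 1151 TPM in vehicle, 1988 to 4003 after CBL0137, 4972 to 6307 after panobinostat and 7740 to 11697 after the combination. For 11 fibroblast markers the sums were 276 to 468 TPM in vehicle, 577 to 1436 after CBL0137, 3030 to 3392 after panobinostat and 3727 to 5357 after the combination. For 10 endothelial markers they were 51.8 to 81.3, 106 to 253, 267 to 299 and 491 to 906 in the same order. Erythroid markers summed to 757 to 5855 TPM in vehicle, 1422 to 15306 after CBL0137, 9507 to 15216 after panobinostat and 9606 to 15455 after the combination. Single libraries stood apart: combination replicate 2 had 7152 TPM of adrenal cortex markers, panobinostat replicate 3 had 11128 TPM of muscle markers, vehicle replicate 2 had 424 TPM of kidney markers, and CBL0137 replicate 3 had 169 TPM of B cell markers against 1.86 to 3.53 in vehicle. The part of these cell types in the results below was not tested. In bulk tumour RNA, fewer cells of a type and less RNA per cell cannot be told apart.

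After both drugs the members took up a smaller share of the TPM total. Their summed share of TPM was 12.8%, 13.1% and 12.8% in the 3 vehicle tumours, and 13.4%, 13.5% and 12.5% in those given CBL0137. It was 10.996% and 10.986% in the panobinostat tumours, and 10.04%, 8.86% and 10.06% after the combination. The CBL0137 tumours spanned the vehicle range, while every panobinostat and combination tumour was below every vehicle tumour. The mean share after the combination, 9.65% ± 0.691 (SD, n = 3), was 74.6% of the vehicle mean, 12.9% ± 0.175 (SD, n = 3). After panobinostat it was 84.9% of the vehicle mean, and after CBL0137 101.4%. The lowest share was that of combination replicate 2, the library with the adrenal cortex markers.

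The share depends on what else is in the total. Small structural RNAs and histone genes, which ribosomal RNA depletion leaves in the libraries, held 26.96% to 30.62% of TPM in vehicle and 16.9% to 25.6% after the combination. Without them the members' share was 17.6% to 18.9% in vehicle, 17.6% to 18.9% after CBL0137, 15.1% to 16.2% after panobinostat and 10.7% to 13.5% after the combination. The order of the groups was as before.

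**Figure D1:**
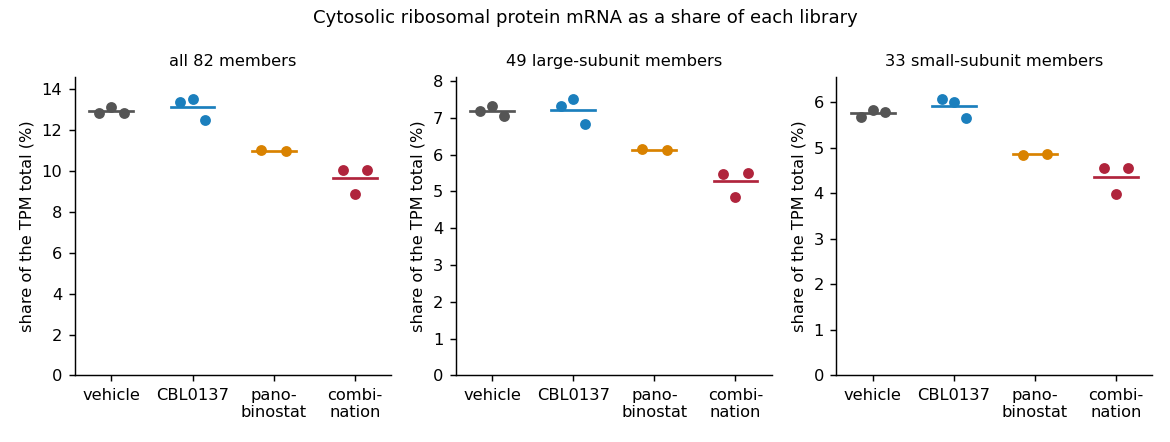
Share of the TPM total (%) held by all 82 members, by the 49 large-subunit and by the 33 small-subunit members. Each point is 1 tumour and each line a group mean. All panobinostat and combination points lie below all vehicle points, and the lowest point in each panel is combination replicate 2.

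The large and the small subunit shifted together. The ratio of the large-subunit to the small-subunit share was 1.22 to 1.27 in vehicle, 1.21 to 1.25 after CBL0137, 1.26 to 1.27 after panobinostat and 1.20 to 1.22 after the combination. The highest combination ratio, 1.217, was just under the lowest vehicle ratio, 1.219, and the CBL0137 and combination ranges overlapped. By library, the median of log2(TPM + 1) minus the vehicle mean was -0.50, -0.60 and -0.47 over large-subunit members in the 3 combination tumours, and -0.41, -0.53 and -0.32 over small-subunit members. It was -0.24 and -0.26 for the large and -0.29 and -0.27 for the small subunit after panobinostat. No test of the difference between the subunits was made.

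CBL0137 alone left ribosomal protein mRNAs near their vehicle levels. In limma's test on log2(TPM + 1), adjusted by Benjamini-Hochberg over all 15497 tested genes, 0 of 82 members were called higher and 0 lower at 0.05, where 4.99% and 1.13% of all tested genes were called. At an unadjusted p under 0.05 there were 2 members, Rpl7l1 (log2 change -0.32, adjusted p = 0.0807) and Rpl31 (0.24, adjusted p = 0.187), both named after their values were seen. Among all 15497 tested genes 3794 reached that level. The median log2 change of the members was 0.0017, beside -0.012 over all tested genes. For 76 of the 82 the 95% interval of the change lay within 0.5 either way on the log2 scale. That bound is wider than the members' median change after panobinostat (-0.26) or the combination (-0.47), so it does not exclude changes of those sizes.

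Panobinostat alone was followed by a moderate fall in some members. Of 82 members, 25 were called lower and 0 higher, where 16.9% of all tested genes were called lower and 25.5% higher. The median change was -0.26 on the log2 scale, a level 16.2% below vehicle, while the median over all tested genes was 0.10. In 66 members both panobinostat tumours were below all 3 vehicle tumours, as they were in 27.8% of all tested genes. The 25 called members fell by 0.29 to 0.86 on the log2 scale and included 13 of the large and 12 of the small subunit. This count rests on few libraries: it was 8 without panobinostat replicate 3, 9 without panobinostat replicate 1, 10 without vehicle replicate 3 and 15 without vehicle replicate 2, 39 without combination replicate 2, and 4 of the 25 were called in all 11 fits that left out 1 library. It was 16 with a replicate block, and 5 without the 3 libraries with adrenal cortex, muscle or kidney markers.

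The furthest fall after panobinostat was that of Rpl30, which encodes a large-subunit protein that also binds selenoprotein mRNAs. Rpl30 was at 108, 88.7 and 86.8 TPM in vehicle and at 50.4 and 51.9 TPM after panobinostat, a log2 change of -0.86 ± 0.14 (SE, adjusted p = 0.00151). Both treated tumours were well below all vehicle tumours. Rps27l, a paralog of Rps27 and a p53 target in other settings, was at 490, 597 and 604 TPM in vehicle and at 313 and 402 TPM after panobinostat, a log2 change of -0.66 ± 0.14 (adjusted p = 0.00423). Its change after the combination was -0.39, and the contrast between the 2 treatments (0.27 higher after the combination) was not called. Rpl22l1, the paralog of Rpl22, was at 472, 505 and 556 TPM in vehicle and at 264 and 410 TPM after panobinostat (log2 change -0.63 ± 0.18, adjusted p = 0.0191). The 2 panobinostat tumours differed from each other here by more than the vehicle range. Rpl7l1, Rps13 and Rps26 followed, with log2 changes of -0.50, -0.49 and -0.48. Rps13, an early-binding small-subunit protein, was at 1106, 1170 and 1227 TPM in vehicle and at 789 and 869 TPM after panobinostat, with no overlap.

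**Figure D2:**
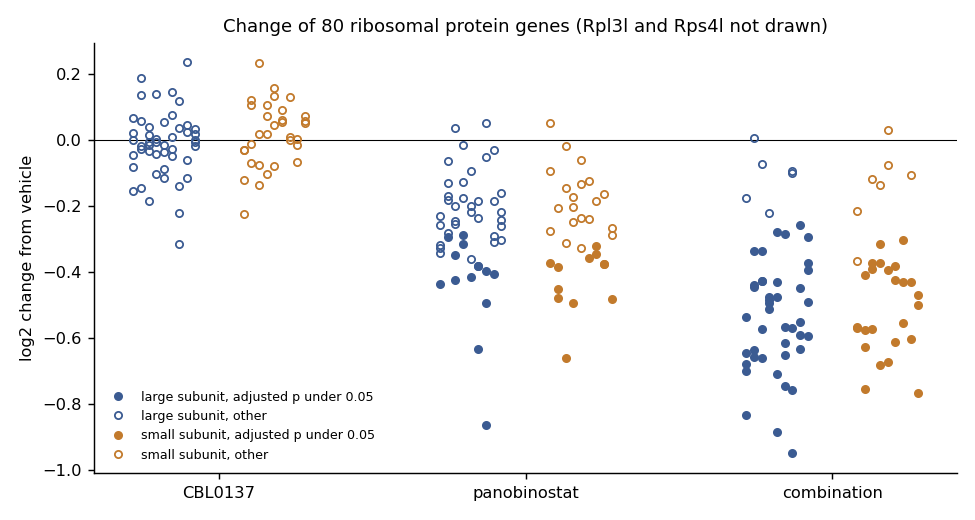
Log2 change from vehicle of 80 members after each treatment, on the log2(TPM + 1) scale, with large-subunit members in blue and small-subunit members in orange. Filled points passed an adjusted p of 0.05. The CBL0137 points are spread around 0 and none is filled, while the combination column is mostly filled and below 0.

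The combination was followed by a fall of most ribosomal protein mRNAs. Of 82 members, 67 were called lower and 0 higher, where 30.1% of all tested genes were called lower and 35.9% higher. The 67 were 42 of 49 large-subunit and 25 of 33 small-subunit members. Their log2 changes ran from -0.26 to -0.95, levels 16.4% to 48.2% below vehicle. The median over all 82 members was -0.47, beside 0.08 over all tested genes. In 72 members all 3 combination tumours were below all 3 vehicle tumours, against 32.4% of all tested genes. All 25 members called after panobinostat were among the 67, but both comparisons use the same vehicle tumours. In all 11 fits that left out 1 library, 58 of the 67 were called, and 53 members were called without those 3 libraries.

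The size of this fall relative to other genes depends on how the libraries are scaled. Quantile normalization, which forces the libraries to one distribution of values, gave 42 members lower and 3 higher. Over all 15497 tested genes it called 6678 lower and 4162 higher. The members' median was -0.25 beside -0.26 over all tested genes. Trimmed-mean (TMM) factors gave 69 lower and a median of -0.62 beside -0.05, with 5513 of all 15497 tested genes lower and 5131 higher. Rescaling without structural RNA and histone genes gave 73 lower and a median of -0.62 beside -0.04. Of the genes that this rescaling kept, 5314 were called lower and 5199 higher. The members' median was below 0 under all 4 scalings, and below the median of all tested genes under 3 of them. After panobinostat, quantile normalization gave 5 lower and 1 higher, with a median of -0.10 beside -0.18. Over all 15497 tested genes 3960 were called lower and 2451 higher there, so the members' share of falls was the smaller.

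Rpl30 fell furthest after the combination as well. It was at 49.2, 40.2 and 56.4 TPM after the combination, all below the lowest vehicle value, a log2 change of -0.95 ± 0.13 (adjusted p = 0.000114). Rpl22, a large-subunit RNA-binding protein that is dispensable for translation in most cells, was at 264, 277 and 285 TPM in vehicle, at 269, 269 and 238 after CBL0137, at 211 and 201 after panobinostat and at 156, 134 and 157 after the combination. Its 4 groups lined up without overlap except between vehicle and CBL0137, and its log2 change after the combination was -0.88 ± 0.09 (adjusted p = 2.634e-05), the smallest adjusted p of any member. Rps26, which contacts the mRNA at the exit channel, was at 1938, 2084 and 2084 TPM in vehicle and at 1244, 1048 and 1313 after the combination (log2 change -0.77 ± 0.12). Rpl14, another large-subunit gene, was at 1186, 1222 and 1188 TPM in vehicle and at 737, 630 and 764 after the combination (-0.76 ± 0.10). Neither gene's combination tumours reached the vehicle range.

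Rps27a makes ubiquitin fused to a small-subunit protein. It was at 1806, 1848 and 1889 TPM in vehicle and at 1182, 963 and 1150 TPM after the combination, a log2 change of -0.75 ± 0.12. Rpl26, which can bind p53 mRNA, fell by 0.83 on the log2 scale, but its standard error was 0.26, more than double that of the median member. The vehicle tumours had 149, 176 and 199 TPM of Rpl26, the CBL0137 tumours 203, 188 and 98.7 TPM, and the combination tumours 108, 76.5 and 111 TPM. The third CBL0137 tumour was as low as the combination tumours.

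**Figure D3:**
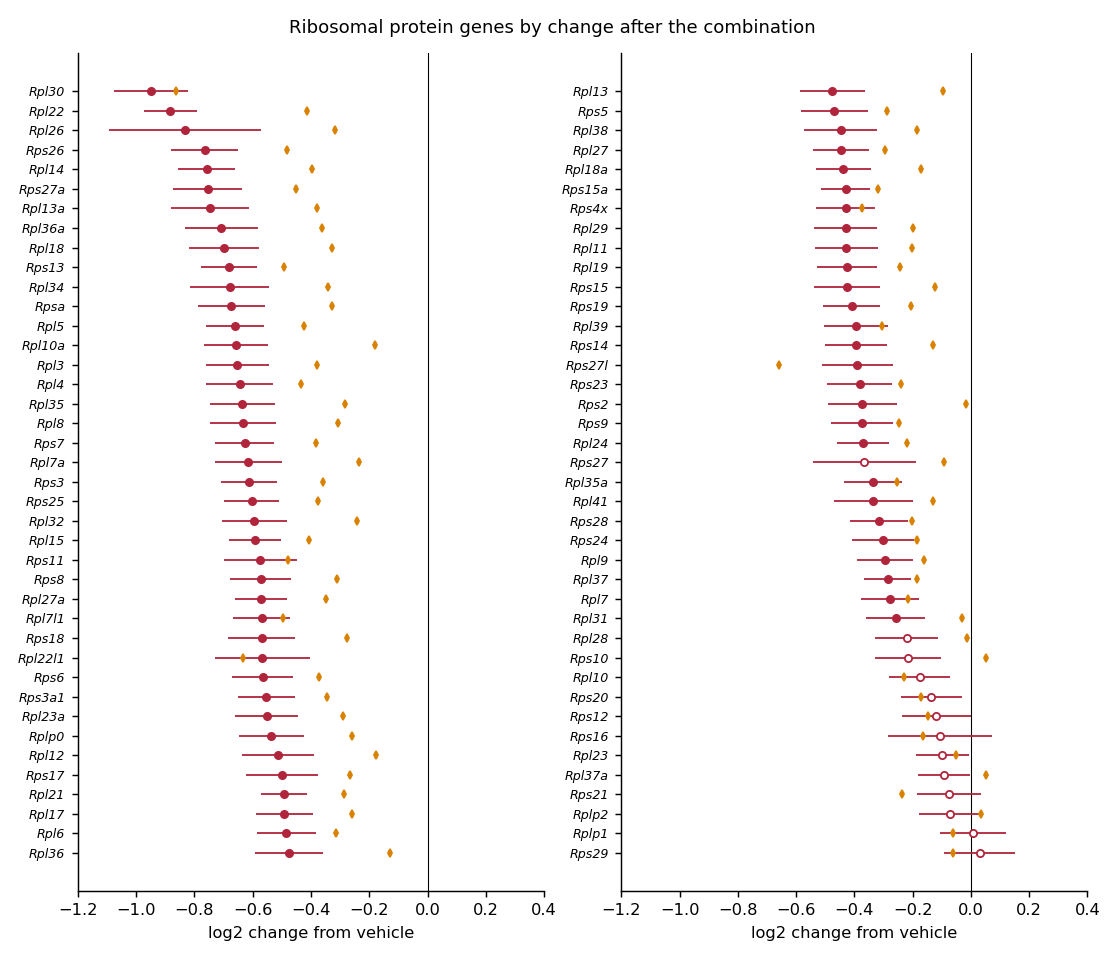
Log2 change from vehicle after the combination for 80 members in rank order (Rpl3l and Rps4l not drawn), red points with standard errors, filled where adjusted p was under 0.05. Orange diamonds give the same member's panobinostat change, which draws on the same vehicle tumours. Rpl30, Rpl22 and Rpl26 lead the left panel, and Rplp1 and Rps29 end the right one near 0.

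Members with known signalling roles were among the genes that fell after the combination. Rpl5 was at 1104, 1140 and 1092 TPM in vehicle and at 721, 637 and 756 TPM after the combination (log2 change -0.66 ± 0.10, adjusted p = 0.000227). Rpl11, its partner in the 5S particle, was at 1503, 1511 and 1357 TPM in vehicle and at 1183, 981 and 1090 TPM after the combination (-0.43 ± 0.11, adjusted p = 0.0053). For both genes the groups did not overlap. Rpsa, which is also a laminin receptor, was at 1855, 1874 and 1980 TPM in vehicle and at 1258, 1027 and 1312 TPM after the combination (-0.67 ± 0.12). Rps6 was at 1214, 1183 and 1142 TPM in vehicle and at 833, 715 and 847 TPM after the combination (-0.57 ± 0.10). Neither gene's combination tumours reached its vehicle range. After panobinostat Rpl5 (-0.42) and Rps6 (-0.37) were called, whereas Rpl11 (-0.20, adjusted p = 0.203) and Rpsa (-0.33, adjusted p = 0.0657) did not pass.

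In the stalk of the large subunit, which recruits elongation factors, 1 of 3 genes was called lower after the combination. The stalk consists of Rplp0 at the base and pairs of Rplp1 and Rplp2. Rplp0 was at 1196, 1250 and 1243 TPM in vehicle and at 859, 732 and 967 TPM after the combination (log2 change -0.54 ± 0.11, adjusted p = 0.0018). Rplp1 was at 2302, 2631 and 2589 TPM in vehicle and at 2617, 2530 and 2402 TPM after the combination, a log2 change of 0.0066 with a 95% interval of -0.25 to 0.26. Rplp2 was at 1652, 1918 and 1833 TPM in vehicle and at 1783, 1560 and 1799 TPM after the combination (-0.07, interval -0.31 to 0.16). The groups of Rplp1 and Rplp2 overlapped and those of Rplp0 did not. Under quantile normalization the change of Rplp2 was 0.30, on the other side of 0, and Rplp2 was called higher. The log2 ratio of Rplp0 to Rplp1 within a library was -1.02 ± 0.07 (SD, n = 3) in vehicle and -1.57 ± 0.24 (SD, n = 3) after the combination. The difference of -0.54 had a 2-sided exact permutation p of 0.1, the smallest that 3 against 3 allows. This ratio was 1 of 3 chosen after the values were seen, and the adjusted p over the 3 was 0.1 as well.

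**Figure D4:**
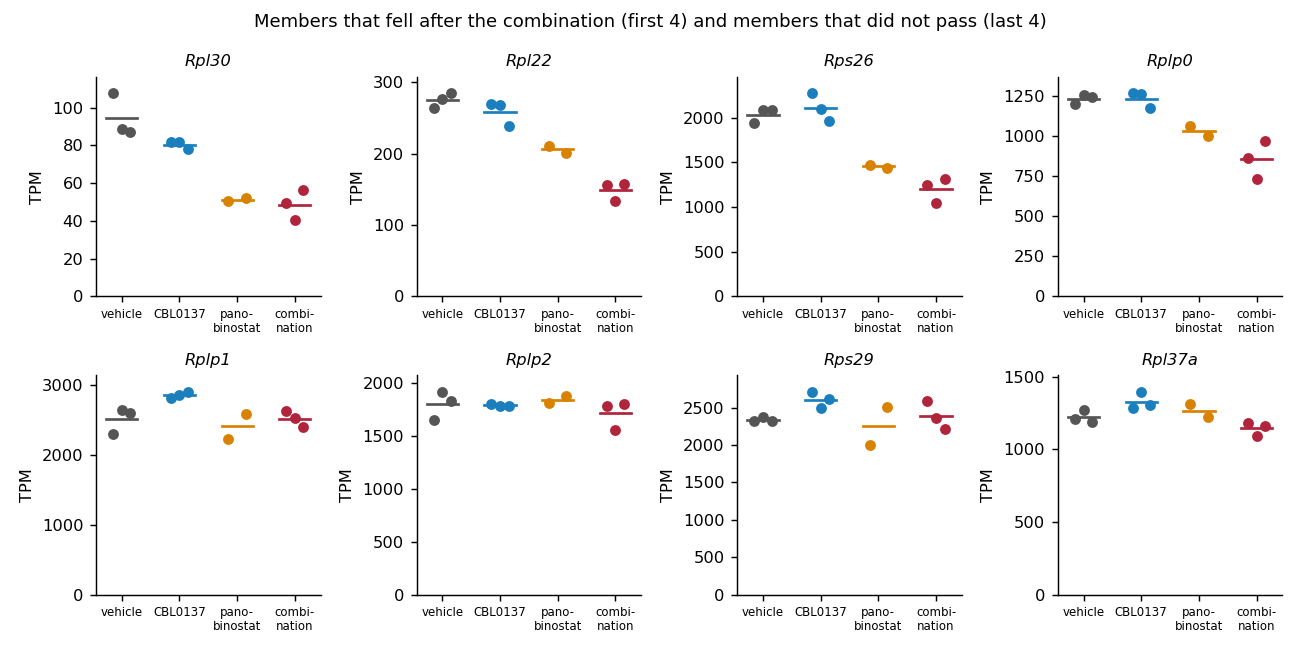
TPM by tumour of 4 members that fell after the combination (Rpl30, Rpl22, Rps26, Rplp0) and 4 that did not pass the test (Rplp1, Rplp2, Rps29, Rpl37a). Each point is 1 tumour and each line a group mean, with the axes starting at 0. In the upper row the combination points are below all vehicle points, and in the lower row the groups overlap or, for Rpl37a, lie close together.

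The 15 members that did not pass after the combination were named after their values were seen. Besides Rplp1 and Rplp2 they were Rps29, Rps21, Rpl37a, Rpl23, Rps16, Rps12, Rps20, Rpl10, Rps10, Rpl28, Rps27, Rps4l and Rpl3l. Rps29, a small zinc-binding protein of the head of the small subunit, was at 2324, 2370 and 2316 TPM in vehicle and at 2592, 2368 and 2212 TPM after the combination (log2 change 0.03, 95% interval -0.24 to 0.30). Rps12, the most abundant member, was at 3728, 3670 and 3928 TPM in vehicle, at 4637, 4400 and 4271 after CBL0137 and at 3653, 3189 and 3606 after the combination. All 3 combination values of Rps12 lay below the vehicle values by a small margin, and the log2 change of -0.12 had an interval of -0.38 to 0.15. Rpl41, the next most abundant, passed narrowly (-0.34 ± 0.13, adjusted p = 0.0487). Its combination values were 3080, 2578 and 3141 TPM against 3680, 4072 and 3342 TPM, and without combination replicate 2 its change was -0.24 and not called. Of the 11 fits that left out 1 library, 8 did not call it. Together the 15 members held 17.1% of the members' summed TPM in vehicle and 21.5% after the combination.

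Members with and without a pyrimidine run within 5 bases of the annotated start were called lower in similar shares. Of the 28 members with a pyrimidine run at the start, 23 were called lower after the combination, with a median change of -0.44 over all 28. Of the 33 with a window but no run, 27 were called lower, with a median of -0.44 over all 33. Over all tested genes 30.1% were called lower. Of the 15 that did not pass, 11 had a window and 5 of those had the run, as the sequences of Rplp2, Rps21 and Rpl28 printed above show. Annotated starts can differ from the starts used in these tumours. Some members counted as without a run, such as Rpl4, Rpl5 and Rps25, have one further upstream in the 30 bases before the start. The groups therefore cannot be read as TOP mRNAs and other mRNAs, and the part of the TOP in the fall was not tested.

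Many ribosomal protein genes carry small nucleolar RNA genes in their introns, which guide modification of ribosomal RNA. In the GENCODE M21 annotation of GRCm38, 30 members contained at least 1 such gene, and Rpl13a contained 4 (Snord32a, Snord33, Snord34 and Snord35a). Of the 30, 24 were called lower after the combination, with a median change of -0.53. Of the other 52, 43 were called lower, with a median of -0.43, and 30.1% of all tested genes were called lower. The 52 include Rps4l, for which no position was found, so that its introns were not searched. After panobinostat, 11 of the 30 and 14 of the 52 were called lower, beside 16.9% of all tested genes.

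The calls were also set beside transcript length. Lengths are those of the GENCODE transcripts matched to the table's identifiers, which can differ from the ones the authors used. After panobinostat 15 of the 28 members with the longest transcripts were called lower (median -0.32), 6 of the 27 in the middle (-0.24) and 4 of the 27 with the shortest (-0.24). After the combination the counts were 23, 23 and 21, with medians of -0.52, -0.48 and -0.41. Over all tested genes 16.9% were called lower after panobinostat and 30.1% after the combination. Across 82 members Spearman's rho between the panobinostat change and length was -0.19, with GC content 0.41 and with mean TPM 0.26. For the combination change these values were -0.17, 0.09 and 0.18. Without Rpl3l and Rps4l the rho with mean TPM was 0.35 and 0.27. These are descriptions across genes that share the same libraries, and their part in the results was not tested.

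The contrast with CBL0137 alone gave nearly the same set of falls as the contrast with vehicle. Of 82 members, 68 were called lower and 0 higher, where 23.7% of all tested genes were called lower and 33.2% higher. Of these, 66 were also called against vehicle, and the combination tumours are shared by both contrasts. The median log2 change was -0.48, beside 0.12 over all tested genes. The furthest falls were in Rpl13a, Rps26 and Rpl22. Rpl13a, which can be released from the ribosome to silence inflammatory mRNAs, was at 1823, 1978 and 1533 TPM in vehicle, at 1997, 1955 and 1911 after CBL0137, at 1404 and 1314 after panobinostat and at 1205, 907 and 1071 after the combination. Its change from CBL0137 was -0.89 ± 0.13 (adjusted p = 0.000548), and no combination tumour reached any tumour of another group.

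Against panobinostat alone few members differed. Of 82 members, 2 were called lower and 0 higher, where 4.3% of all tested genes were called lower and 6.24% higher, so the members' share was below that of all genes. They were Rpl22 (log2 change -0.47 ± 0.10, adjusted p = 0.0263) and Rpl10a (-0.48 ± 0.12, adjusted p = 0.0388). Rpl10a, which marks a subset of ribosomes in some cells, was at 1360, 1394 and 1284 TPM in vehicle, at 1244 and 1132 after panobinostat and at 898, 757 and 910 after the combination. By sign alone 73 of 82 members were lower after the combination than after panobinostat, as were 7929 of all 15497 tested genes. The median change was -0.22, beside -0.015 over all tested genes. At an unadjusted p under 0.05 there were 24 of the 82 members and 5233 of the 15497 genes, the members' share being the smaller. Neither Rpl22 nor Rpl10a was called in all fits that left out 1 library, in which the count ran from 0 to 6.

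The interaction term asks whether the change after both drugs differs from the sum of the changes after each. It was called for 0 of 82 members, where 0% of all tested genes were called. At an unadjusted p under 0.05 there were 8 of the 82 members and 1631 of all 15497 tested genes, a similar share. The median interaction of the members was -0.22 on the log2 scale, beside -0.018 over all tested genes. Among members 76 of 82 values were below 0, as were 8018 of the 15497, and the members' smallest adjusted p was 0.377. The test did not show a departure from additivity in any member, and the panobinostat group has only 2 tumours.

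Paralogs of ribosomal proteins were read one pair at a time. Rpl22l1 was more abundant than Rpl22 in every library: its level was 179% to 195% of that of Rpl22 in vehicle, 183% to 211% after CBL0137, 125% and 203% after panobinostat and 207% to 275% after the combination. Both genes fell after the combination, Rpl22 by 0.88 and Rpl22l1 by 0.57 on the log2 scale. After the combination the log2 ratio of Rpl22 to Rpl22l1 differed by -0.32 from vehicle (exact permutation p = 0.1, the smallest possible, adjusted p over 3 ratios 0.1). This ratio too was chosen after the values were seen. Rpl7l1, a relative of Rpl7, was at 78.8, 90.1 and 76.4 TPM in vehicle and at 56.3, 53.4 and 54.2 TPM after the combination (log2 change -0.57 ± 0.10, adjusted p = 0.000474). Rpl7 passed narrowly (-0.28, adjusted p = 0.0322). It was not called under 11 of 22 alternatives, 6 of them fits that left out 1 library, and under quantile normalization its change was 0.047, on the other side of 0.

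Rpl36a and its relative Rpl36al, which the name rule leaves out, were compared as a pair chosen after the values were seen. Rpl36a was at 1465, 1347 and 1268 TPM in vehicle and at 946, 692 and 875 TPM after the combination (log2 change -0.71 ± 0.13, adjusted p = 0.000666). Rpl36al was at 667, 677 and 613 TPM in vehicle and at 579, 563 and 564 TPM after the combination (-0.20, adjusted p = 0.0623). The log2 ratio of Rpl36a to Rpl36al went from 1.06 ± 0.07 (SD, n = 3) in vehicle to 0.55 ± 0.22 (SD, n = 3) after the combination (exact permutation p = 0.1, the smallest possible, adjusted p over 3 ratios 0.1). Their annotated transcripts were 83.1% identical over 390 aligned positions.

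Rpl3l replaces Rpl3 in striated muscle. It was listed at 0.13, 0.12 and 0.13 TPM in vehicle, at 0, 1.64 and 0 after CBL0137, at 0.5 and 47.4 after panobinostat and at 4.84, 0.63 and 0.39 after the combination. The 3 libraries above 1 TPM were those with the highest summed muscle markers, at 745 TPM in CBL0137 replicate 2, 11128 TPM in panobinostat replicate 3 and 879 TPM in combination replicate 1. In the other 8 libraries the muscle markers summed to 7.34 to 79.6 TPM. Rpl3 itself fell from 1595, 1585 and 1551 TPM in vehicle to 999, 932 and 1083 TPM after the combination (log2 change -0.65 ± 0.11). Rps4x, the X-linked small-subunit gene, was at 2342, 2240 and 2266 TPM in vehicle and at 1783, 1631 and 1672 TPM after the combination, a log2 change of -0.43 (adjusted p = 0.0038). Its autosomal relative Rps4l ranged from 7.14 to 80.7 TPM within vehicle alone, more than across the treated groups, and was not called against vehicle. Rpl39 fell by 0.39.

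**Figure D5:**
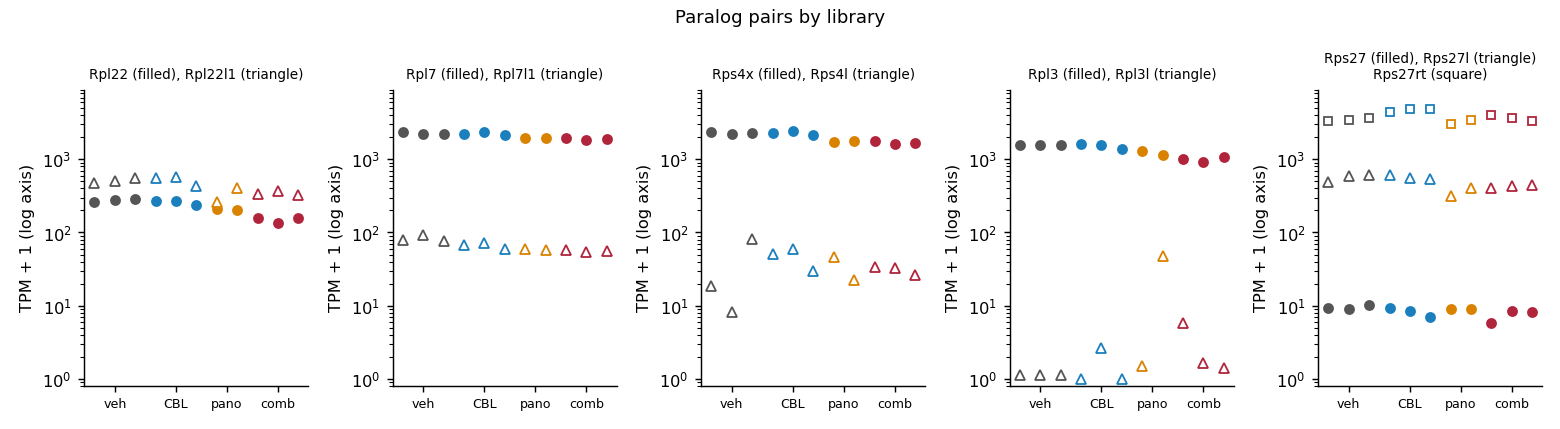
TPM + 1 on a log axis for 5 paralog pairs, with filled circles for the first gene, open triangles for its relative and, in the last panel, open squares for the Rps27 retrocopy. Libraries run from vehicle to combination. Rpl22l1 lies above Rpl22 in all 11, Rpl3l stands at 47.4 TPM in panobinostat replicate 3, and Rps27 lies far below its retrocopy.

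Some members share sequence with retrocopies, and the read assignment between them is uncertain. Rps27 was listed at only 4.83 to 9.3 TPM, while its retrocopy Rps27rt was listed at 3073 to 4919 TPM. The annotated transcripts were 100% identical over 341 aligned positions, so the low value of Rps27 cannot be read as its expression. Their sum was 3502 ± 155 TPM (SD, n = 3) in vehicle, 4755 ± 214 (SD, n = 3) after CBL0137, 3081 and 3477 after panobinostat and 3691 ± 312 (SD, n = 3) after the combination. All 3 CBL0137 tumours exceeded all vehicle tumours, and Rps27rt had a log2 change of 0.44 (adjusted p = 0.068) after CBL0137, which did not pass. Rpl14 and Rpl14-ps1 were 98.9% identical over 656 positions. The pseudogene was at 77.2 to 87.5 TPM in vehicle and at 46.1 to 47.7 TPM after the combination (-0.82, beside -0.76 for Rpl14). Rpl34 was at 119 to 143 TPM after the combination and Rpl34-ps1 at 494 to 649 TPM, and the 2 rows behaved differently: Rpl34 fell by 0.68 and Rpl34-ps1 was not called (-0.14, adjusted p = 0.266).

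Ribosomal proteins encoded under other names were held apart by the rule. Fau, which makes a small-subunit protein fused to a ubiquitin-like one, was not called after the combination (0.01, adjusted p = 0.929). Gnb2l1, which encodes the scaffold protein Rack1 of the small subunit, was at 1621, 1755 and 1702 TPM in vehicle and at 1248, 1078 and 1292 TPM after the combination (-0.49 ± 0.11, adjusted p = 0.00253). Rpl36al, described above, was called lower after panobinostat (-0.30, adjusted p = 0.0293).

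Of 20 further genes commonly described as TOP mRNAs (translation factors, nucleolar proteins and small nucleolar RNA hosts), 15 were called lower and 1 higher after the combination, where 30.1% of all tested genes were called lower and 35.9% higher. Their median was -0.51. After panobinostat 12 were called lower and 1 higher, where 16.9% and 25.5% of all tested genes were, with a median of -0.43. Their start sites were not searched. The lowest adjusted p values after the combination were those of Eif3l (log2 change -0.97), Npm1 (-1.50) and Eif4b (-0.80), an initiation factor subunit, a nucleolar histone chaperone and a helicase cofactor, and of Snhg1 (-1.13), a host of small nucleolar RNAs. The gene that rose was Tpt1, a translationally controlled tumour protein (0.79, adjusted p = 0.000453), which also rose after CBL0137 (0.56, adjusted p = 0.036) and after panobinostat (0.44, adjusted p = 0.0348). After CBL0137, 1 of 20 was called higher and 1 lower, where 4.99% and 1.13% of all tested genes were. The gene called lower was Eif4b (-0.42, adjusted p = 0.0215).

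Most chaperones dedicated to single ribosomal proteins fell. Of 7 listed genes, 6 were called lower after the combination and 6 after panobinostat, with medians of -1.01 and -0.82, where 30.1% and 16.9% of all tested genes were called lower. The members' medians were -0.47 and -0.26. Pdcd2, which escorts Rps2, changed by -0.97, Heatr3, which imports Rpl5, by -1.14, Tsr2, which serves Rps26, by -1.146, and Grwd1, which serves Rpl3, by -1.24 after the combination. Aamp was not called (0.15, adjusted p = 0.218). The difference between chaperones and members was not tested. After CBL0137, 0 of 7 were called, where 4.99% of all tested genes were called higher and 1.13% lower. An unadjusted p under 0.05 was reached by 3 of the 7 and by 3794 of all 15497 tested genes.

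Of 10 listed regulators of TOP mRNA translation, 4 were called lower and 1 higher after the combination, where 30.1% of all tested genes were called lower and 35.9% higher, so these counts are near the background for falls and below it for rises. Eif4ebp1, the translation repressor that mTOR inactivates, rose by 1.43 on the log2 scale. Larp4, which stabilises mRNA at the poly(A) tail, changed by -1.13, Larp1, which binds the TOP itself, by -0.74, Tsc1, an inhibitor of mTOR signalling, by -0.54, and Rps6kb1, which phosphorylates Rps6, by -0.53. Mtor (0.03), named after its values were seen, was not called. Of 10 p53 target genes, 7 were called higher and 1 lower after the combination, where 35.9% and 30.1% of all tested genes were. Cdkn1a (3.27) and Phlda3 (2.34) were among the 7. Rps27l, a member regulated by p53 in other settings, was called lower (-0.39, adjusted p = 0.0168).

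Mitochondrial ribosomal protein genes, added after the members' values were seen, were set beside the cytosolic ones. Of 77 tested, 43 were called lower and 2 higher after panobinostat, where 16.9% of all tested genes were called lower and 25.5% higher, with a median of -0.44. After the combination 50 were called lower and 5 higher, where 30.1% and 35.9% of all tested genes were, with a median of -0.44. The cytosolic members had medians of -0.26 and -0.47 in the same contrasts. Against panobinostat alone the combination gave a median of -0.07 in mitochondrial and -0.22 in cytosolic genes. The difference between the 2 families was not tested.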

How the data were processed

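Total RNA from 11 frozen tumours was depleted of ribosomal RNA and sequenced as stranded libraries, per the labels' protocols. The submitters' processing notes name STAR, SAMtools, RSEM and mm10, while versions and the annotation release are not given in the sources used here. The authors deposited TPM values for 24411 genes, which sum to 1000000 in each library, so sequencing depth and counting error are unknown. A filter of 1 TPM in 2 or more libraries kept 15497 genes for testing. Values were log2(TPM + 1), so fold changes of low genes are understated. The 4 group means were fitted together with limma 3.58.1 under R 4.3.3 (eBayes with trend), with 2-sided tests, with Benjamini-Hochberg adjustment over all tested genes and a threshold of 0.05. The fit was also run on simulated data with noise drawn independently for each gene, a simpler setting than these tumours. No result here rests on that run. Each library is 1 tumour by the labels, and p-values measure the spread between these samples.

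Groups came from the labels' treatment field. Alternatives were other pseudocounts, filters and scalings, a replicate block, a fit without trend, only the groups compared and each library left out. A lone library that remains in a group is taken to have the spread of the other groups. A fit without the 3 libraries with adrenal cortex, muscle or kidney markers was chosen after seeing the data. Members and lists were chosen with earlier results of these data known. Named members were the 6 furthest called in each direction for contrasts with vehicle and the 3 furthest for contrasts among treated groups, the paralog pairs, the 4 highest and 4 lowest by mean TPM, and Rpl5, Rpl11, Rplp0, Rplp1, Rplp2, Rpsa, Rps6 and Rps27a. Of other lists, the counts and members of lowest adjusted p are given. Identity of copies comes from local alignment of GENCODE M21 transcripts. Promoter windows are from RefSeq. Figures were drawn with matplotlib 3.10.9. Some list members are not reported here.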

Additional observations from a re-analysis of the deposited data

How the results depend on the processing

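Depth is unknown, and the 2 panobinostat tumours limit every contrast that uses them. CBL0137 against vehicle gave 0 members called under all alternatives run, with medians of -0.02 to 0.05 when 1 library was left out. For panobinostat against vehicle, the members called lower numbered 25, and they numbered 5 with 1 higher under quantile normalization, 40 with only the groups compared, 5 without the libraries holding most adrenal cortex, muscle and kidney transcripts, and 8 to 39 (0 to 1 higher) in fits without 1 library. Its median was -0.36 with TMM factors and -0.10 with quantile normalization. Under quantile normalization 3960 of all 15497 tested genes were called lower and 2451 higher in this contrast. For the combination against vehicle, quantile normalization gave 42 lower and 3 higher, where 6678 of all 15497 tested genes were called lower and 4162 higher. Fits without 1 library gave 60 to 67 lower and 0 to 1 higher, with medians of -0.52 to -0.40. The median was -0.62 with TMM factors, -0.25 with quantile normalization, -0.62 rescaled without structural RNA and histone genes, and -0.41 without the 3 libraries named above. For the combination against CBL0137, quantile normalization gave 34 lower and 1 higher, where 5361 of all 15497 tested genes were called lower and 3892 higher. The corresponding medians were -0.65, -0.23, -0.61 and -0.41, and -0.53 to -0.41 without 1 library. Rpl7 and Rplp2 changed sign under quantile normalization, to 0.047 and 0.30 against vehicle and to 0.053 and 0.27 against CBL0137. Rplp2 was called higher there in both contrasts. The cause of these shifts was not tested.

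For the combination against panobinostat, the 2 members called lower became 1 with no filter on low values or without an eBayes trend, 0 with TMM factors, with only the groups compared or without the 3 libraries, 4 with quantile normalization, 9 when rescaled, and 0 to 6 without 1 library. In this contrast quantile normalization called 1825 of all 15497 tested genes lower, and rescaling called 1308 of the genes it kept. The members' median when rescaled was -0.37. For the interaction the median was -0.13 with quantile normalization, -0.35 when rescaled and -0.25 to -0.15 without 1 library, and 0 members were called in each. With a replicate block, 16 members were lower after panobinostat and 0 in the combination against panobinostat. The replicate numbers carry no stated pairing: the 15 same-numbered pairs had deviations correlated at -0.26 to 0.19, and only 2 exceeded 0.1, against -0.25 to 0.30 in 30 other pairs.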
